A study of Saccharomyces cerevisiae with 2 samples.

Results

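The genes nearest the chromosome ends of budding yeast (Saccharomyces cerevisiae) were taken from the 5656 genes that had a probe set of their own. Locus names of yeast genes count outward from the centromere. On each of the 32 chromosome arms the 8 genes with the highest locus number among genes on the array were therefore taken, which gave 256. Of these, 38 were left out by name: 22 belong to families such as the hexose transporters, flocculins and iron uptake genes, and 16 carry only a locus name with a letter suffix. The remaining 218 are called end genes here, dim ones included, and their rank counts from 1 at the outermost gene on an arm. The rule uses no measured value. The RNA came from the strain labelled Mutant Histone H3 K4,36,79R, whose H3 carries arginine in place of lysines 4, 36 and 79. Its cells also held a wild-type H3 gene, which galactose medium kept on and glucose medium repressed. How much wild-type H3 was left was not measured here. Cells were collected 12 h after the change to glucose, and 2 replicate cultures were measured on an Affymetrix array each. Both arrays form a single group, so no value below is a difference between mutant and wild type.

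Yeast chromosomes end in repeats that bind Rap1, which recruits the silencing proteins Sir2, Sir3 and Sir4. The Sir complex binds nucleosomes whose H3 tail and H3 K79 surface lack certain marks, and methylation of K79 by Dot1 and of K4 by Set1 is known to influence where it spreads. The region next to the repeats holds few essential genes. It is rich in families with copies on many chromosomes, among them the COS genes, the seripauperins (PAU), genes for maltose use and aryl alcohol dehydrogenases, many of which serve growth under particular conditions.

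Signals are MAS5 intensity values on a linear scale. Over all probe sets the medians were 28.4 and 27.5 on replicates 1 and 2. A gene's value is the geometric mean of its probe sets. The array's Bio and Cre controls include 9 opposite-strand probe sets, which have no target in these samples. These 9 read up to 3.39 on replicate 1 and 4.07 on replicate 2. A gene at or below both is called within the control range. How strongly a probe set reads also depends on its sequence, so single genes are placed against the whole array and not ordered by RNA level. A low signal can come from few cells that carry the RNA or from little RNA in every cell, and these cannot be told apart in RNA from a whole culture. Most end genes, 195, had 1 probe set. Of the 276 probe sets of end genes, 206 were plain, meaning that their name carries no letter marking shared or incomplete probes. No plain probe set was present for 24 end genes (11.0%), against 3.73% of all genes. Several probe sets were present for 23 end genes, and those of 13 ranged over more than 4-fold. Placed by its brightest probe set instead, with limits of 20.8 and 98.1, 6 of these 23 left the lowest 25% of all genes: COS9, DAL5, FDH1, FMP27, SUC2 and SWH1. Of the 6, FMP27 then lay in the highest 25%, as did SAM3. COS10 and YIR043C left the control range.

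End genes gave lower signal than the array as a whole. Their median was 26.6 and 26.0 on the 2 arrays (26.3 ± 0.410, SD, n = 2), against 42.0 and 41.4 for all genes (41.7 ± 0.383, SD, n = 2). On the log2 scale the end genes' median lay at -0.66 relative to that of all genes. With limits taken from all genes, the lowest 25%, at a signal up to 19.2, held 94 of the 218 end genes (43.1%), where 25% of all genes lie by construction. In the highest 25%, from a signal of 94.0, were 37 (17.0%), again against 25%. Within the control range on both arrays were 16 end genes (7.34%), against 2.44% of all genes. A further 5 were within that range on 1 array, and 197 read above it on both. Among all 5656 genes these counts were 72 and 5446. Of the 24 end genes without a plain probe set, 5 were within the range on both arrays (20.8%), against 6.42% of other such genes. Of the 194 with one, 11 were (5.67%), against 2.09% of other genes with one. The distribution was wide, with the central 50% of end genes between 10.2 and 66.3 and the extremes at 0.243 and 1078. No test between groups of genes was made, since genes of an arm share their chromosome and their arrays.

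**Figure D1:**
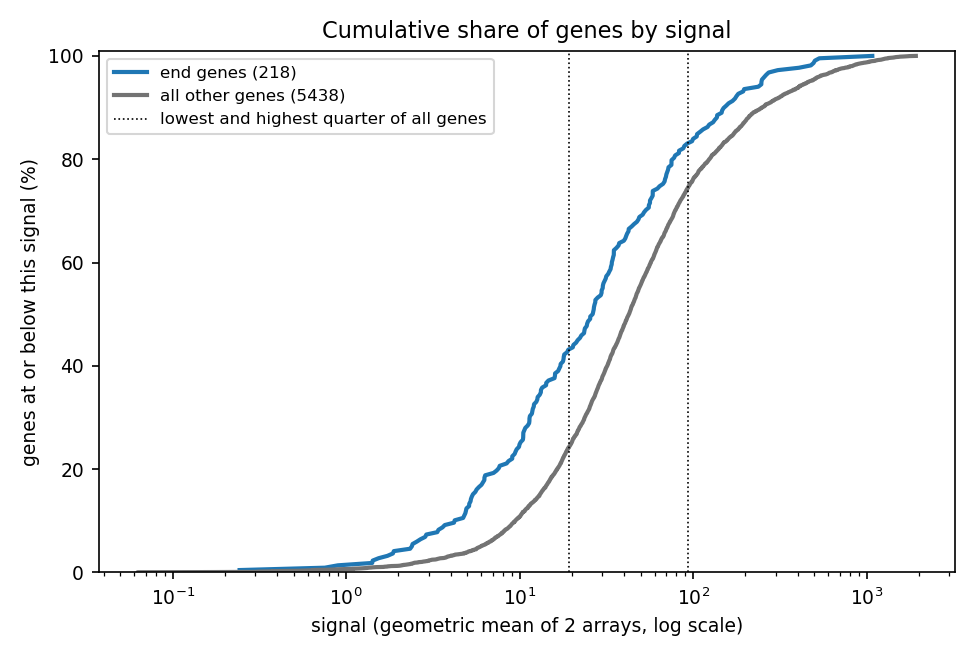
Cumulative share of genes (vertical axis, percent) by signal (horizontal axis, log scale, geometric mean of 2 arrays) for the 218 end genes in blue and the 5438 other genes in grey, with dotted lines at the limits of the lowest and highest 25% of all genes. The blue curve lies above the grey curve over most of the range and stands at 43.1% at the lower dotted line.

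Signal went with position. The 110 genes of ranks 1 to 4 had a median of 18.0 ± 0.227 (SD, n = 2), and the 108 of ranks 5 to 8 had 31.8 ± 0.0613. Further in, the 247 genes of ranks 9 to 16, chosen with the same names left out, had 44.3 ± 0.229, and the 245 of ranks 17 to 24 had 47.0 ± 0.725. The low values were therefore concentrated in the outermost ranks, and ranks 9 to 16 already lay above the median of all genes. In the lowest 25% were 58 of 110 genes of ranks 1 to 4, 36 of 108 of ranks 5 to 8, 62 of 247 of ranks 9 to 16 and 54 of 245 of ranks 17 to 24, against 25% of all genes. Within the control range were 11 genes of ranks 1 to 4, 5 of ranks 5 to 8 and 4 of ranks 9 to 16. These are 10%, 4.63% and 1.62% of the genes of those ranks, against 2.44% of all genes, and the share was 2.04% at ranks 17 to 24 and 3.31% at ranks 25 to 32. The outermost rank did not have the lowest median. By the median of the genes' values over both arrays, rank 1 had 26.4 over 29 genes, rank 2 had 12.1 over 27, rank 3 had 16.0 over 27 and rank 4 had 20.4 over 27. Ranks 5, 6, 7 and 8 had 26.3, 32.4, 27.0 and 37.5. All 8 ranks lay below the median of all genes, 41.8. Many of the 29 rank 1 genes, among them PAU4, PAU10, GEX2 and YCL075W, had no plain probe set. The rank 1 median is therefore partly one of shared or incomplete probes. How far this sets rank 1 apart from ranks 2 to 4 was not tested. Among end genes with a plain probe set, the 89 of ranks 1 to 4 had a median of 17.2 ± 0.472 (SD, n = 2). The 105 such genes of ranks 5 to 8 had 32.5 ± 0.275. At the edge of the rule, the 27 genes of rank 8 had a median of 37.5 and the 29 of rank 9 had 36.9.

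**Figure D2:**
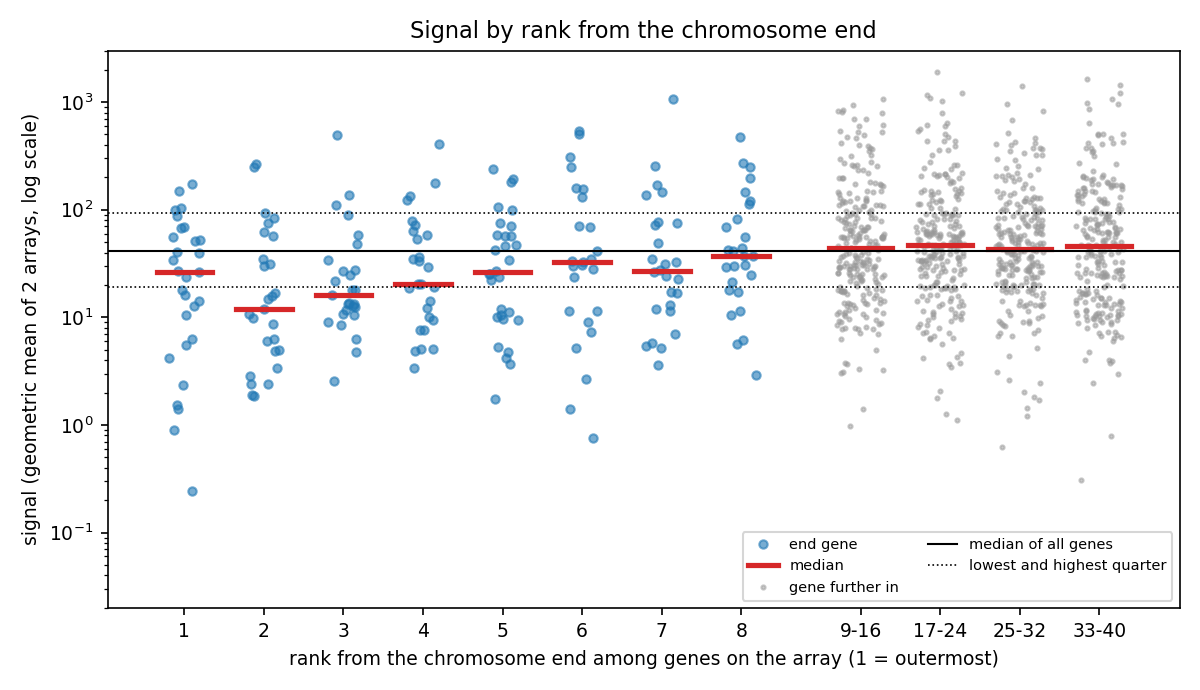
Signal (vertical axis, log scale, geometric mean of 2 arrays) by rank from the chromosome end (horizontal axis): blue points are single end genes of ranks 1 to 8, grey points are genes further in, red bars are medians, the solid line is the median of all genes and dotted lines bound the lowest and highest 25%. The red bars stand at 12.1 for rank 2, 37.5 for rank 8 and 44.3 for ranks 9 to 16.

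The ranks count only genes on the array with a probe set of their own, so they were set beside RefSeq's table of the R64 assembly, used for gene order only. Among members listed there as protein-coding, locus numbers and the table gave the same order on 31 of 32 arms. On 9 arms no protein-coding gene lay beyond the outermost end gene, and the median was 3 such genes, with at most 11 on the right arm of chromosome 8. The innermost end gene was at most the 15th protein-coding gene from an end. Of the 256 protein-coding genes that are the outermost 8 on each arm in that table, 122 are end genes and 100 are covered only by probe sets that list several genes. Ordered by their place in that table, the 53 end genes at places 1 to 5 had a median signal of 15.9, the 111 at places 6 to 10 had 27.0 and the 48 at places 11 to 15 had 32.2. The direction was thus the same as with ranks. The 6 end genes not listed as protein-coding had a median of 3.39, and 3 of them were within the control range. Genes with shared probes are not named here. The 77 probe sets whose several genes all lie among those outermost genes had a median of 24.0, or 25.4 and 24.9 by array, and 35 of them (45.5%) were at or below 19.2 and 16 (20.8%) at or above 94.0. All 328 probe sets with several genes had a median of 109, with 24.7% and 52.7% past the same limits, which come from genes with a probe set of their own.

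Arms differed widely. The medians of the 32 arms ran from 4.25 to 137, and 23 of them lay below the median of all genes. Only the left arm of chromosome 13 had no end gene in the lowest 25%, and 13 arms had none in the highest 25%. Genes within the control range were spread over 11 arms. The 14 arms with the full 8 end genes and the others were not compared, and the right arm of chromosome 8 kept 2 end genes after the names were left out. The 112 end genes of left arms had a median of 28.0 ± 0.812 and the 106 of right arms 24.3 ± 0.127 (SD, n = 2), with 47 in the lowest 25% on each side.

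**Figure D3:**
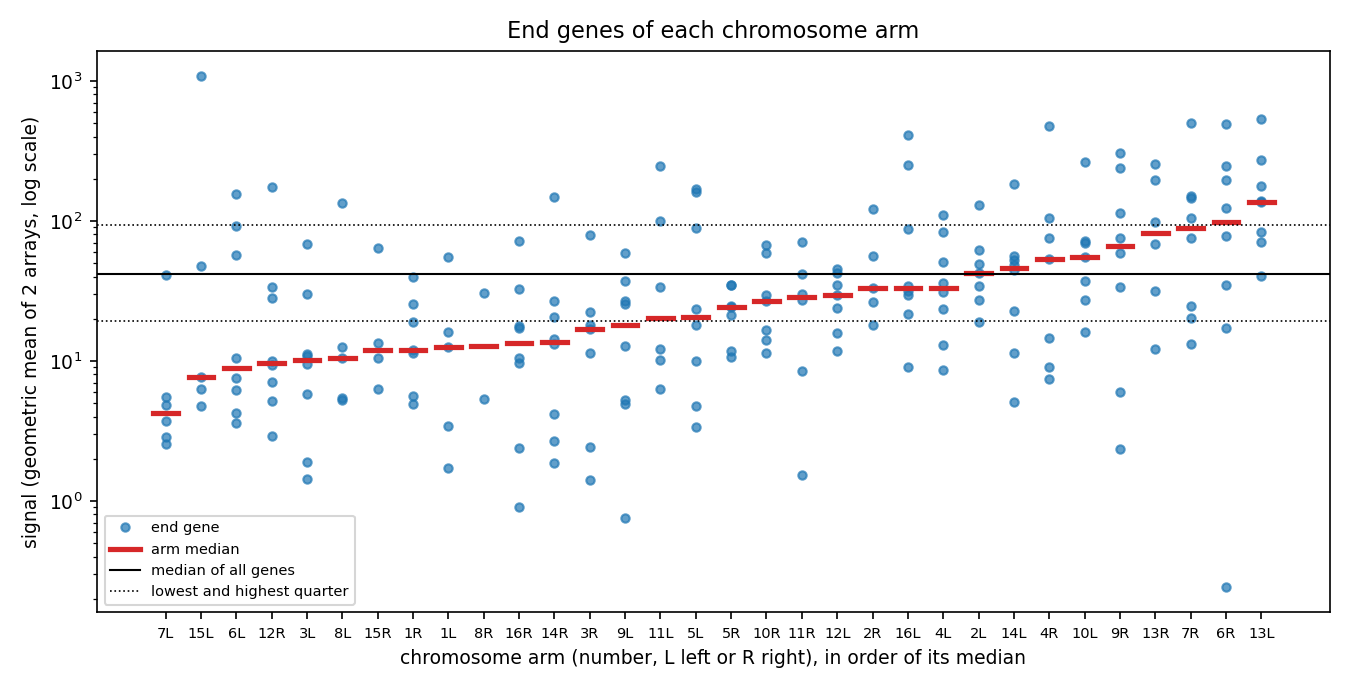
Signal of every end gene (blue points, vertical axis, log scale, geometric mean of 2 arrays) on each of the 32 chromosome arms (horizontal axis, number with L for left and R for right), ordered by the arm's median (red bar), with the median of all genes as a solid line and the lowest and highest 25% as dotted lines. Medians run from 4.25 on the left arm of chromosome 7 to 137 on the left arm of chromosome 13.

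On the left arm of chromosome 7, 5 of the 6 end genes were in the lowest 25%. The COS family gene COS12, the outermost, read 4.86 and 6.36 on replicates 1 and 2. The locus YGL262W read 2.81 and 2.90, and YGL260W read 2.46 and 2.65, both within the control range. The yapsin-type protease gene YPS5 read 4.86 and 4.88 and the locus VEL1 4.73 and 2.90. YGL260W and VEL1 had no plain probe set. The innermost of the 6, the mannosyltransferase gene MNT2, read 46.2 and 36.6, near the median of all genes.

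On the left arm of chromosome 13, 5 of the 8 end genes were in the highest 25% and 1 lay below the median of all genes. That gene, YML131W, was also the outermost and read 47.1 and 35.1. ERG13, the HMG-CoA synthase gene of the sterol pathway, read 571 and 499. TUB3, a gene for alpha-tubulin, read 279 and 266, and MSC1 189 and 167. COX14, for assembly of cytochrome c oxidase, read 147 and 128, and PGA3 135 and 140.1. ERO1, for disulfide bond formation in the endoplasmic reticulum, read 84.2 and 81.8, and RSC9, a subunit of the RSC chromatin remodeler, 75.7 and 64.9. The arms with the next highest medians were the right arms of chromosomes 6 and 7, at 98.1 and 89.0. The right arm of chromosome 6 held the dimmest of all end genes, its outermost gene YFR057W, and genes in the highest 25% at each of ranks 3 to 6.

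The outermost genes themselves spanned nearly the full range. Of the 29 end genes at rank 1, 13 were in the lowest 25% and 4 in the highest. YFR057W read 0.32 and 0.185, and ARR3, which encodes the arsenite exporter on the right arm of chromosome 16, read 0.767 and 1.05. YCL075W read 1.21 and 1.67, the glutathione exchanger gene GEX2 1.60 and 1.48 and YIR043C 2.53 and 2.16. All 5 of these were within the control range on both arrays, YIR043C by the mean of 2 probe sets, one of which read 3.45 on replicate 1. Those in the highest 25% were 3 seripauperins, whose values follow, and COS6 at 155 and 145. Above the control range but still in the lowest 25% was SEO1, a permease gene, at 16.2 and 15.7. In neither the lowest nor the highest 25% were YJL218W at 53.2 and 57.9 and YAR068W at 39.0 and 40.8. The same holds for MIX23, for a mitochondrial protein, at 30.1 and 38.4. YAR068W, like YCL075W, GEX2 and YIR043C, had no plain probe set.

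Among lists of genes drawn up by symbol, 10 had end genes, and 7 of them had a median below that of all genes. The seripauperins and the related DAN and TIR mannoproteins, cell wall proteins known for expression at low oxygen, stood at the other side. Their 9 end genes had a median of 78.8 ± 1.34 (SD, n = 2), with 4 in the highest 25% and 1 in the lowest. PAU4 read 178 and 171 on replicates 1 and 2, PAU13 142 and 125, PAU10 100.4 and 109.5 and PAU16 100.4 and 99.5. PAU3 read 79.7 and 77.8, PAU19 70.3 and 66.6 and PAU15 62.3 and 55.0. The 7 PAU genes were measured only by probe sets marked as shared with a gene family, so RNA of the single copies cannot be told apart. DAN4 and DAN1, both on the right arm of chromosome 10 with plain probe sets, read 61.1 and 56.1 and 10.4 and 12.5. The 7 genes of this list that are not end genes, PAU7, PAU17, PAU23 and TIR1 to TIR4, had a median of 161 ± 1.91, all in the highest 25%. PAU7, PAU17 and PAU23 were also measured only by probe sets marked as shared with a gene family, and TIR1 to TIR4 by plain ones. PAU signal at the ends and elsewhere can therefore not be told apart. Without the 9 genes, the remaining 209 end genes had a median of 24.5 ± 0.432.

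The COS family, of membrane proteins that help sort plasma membrane proteins for breakdown in the vacuole, had 7 end genes and no measured member elsewhere. Their median was 12.6 ± 0.220 (SD, n = 2), and 4 of the 7 were in the lowest 25%. COS10 read 1.94 and 1.78, within the control range by the mean of 4 probe sets of which the brightest read 3.45 and 3.39, COS12 is given above, COS9 read 9.81 and 10.5 and COS8 12.5 and 12.8. COS7 read 55.3 and 47.4 and COS4 88.0 and 97.0, each from a probe set marked as shared within the family, and COS6 read 155 and 145 from a plain probe set. Members therefore lay on both sides of the median of all genes. A second probe set of COS7 read 0 on replicate 1 and 0.0617 on replicate 2 and was left out because of the 0. The 3 COS9 probe sets ranged over 10.8-fold. Among relatives of COS in the wider DUP family, MST28 read 10.7 and 12.1 and PRM9 13.7 and 10.4, both on the right arm of chromosome 1. Not every such relative among the end genes is printed here. MST28 had no plain probe set.

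Aryl alcohol dehydrogenases, relatives of aldo-keto reductases, had 4 end genes with a median of 59.1 ± 1.40 (SD, n = 2). AAD10 read 66.3 and 67.9, AAD14 51.0 and 53.3 and AAD6 10.1 and 10.9. AAD4 read 107 and 113, but its probe sets differed: the plain one read 53.3 and 48.9 and the one marked as shared with similar genes 215 and 259. AAD6 alone of the 4 lay in the lowest 25%.

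Genes for maltose and other alpha-glucosides, which glucose represses, had 7 end genes with a median of 18.0 ± 0.447 (SD, n = 2). None was in the highest 25% and 4 were in the lowest. At the locus on the right arm of chromosome 7, the maltose permease gene MAL11 read 77.1 and 73.2, the activator gene MAL13 12.6 and 13.9 and the isomaltase gene IMA1 21.2 and 19.3. At that on the right arm of chromosome 2, the permease gene MAL31 read 24.9 and 28.0 from a shared probe set and the activator gene MAL33 18.3 and 17.6. The isomaltase gene IMA5 read 15.2 and 16.8 and the permease gene MPH2, which had no plain probe set, 9.01 and 8.27. MAL11 was the member above the median of all genes.

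Other genes of carbon use varied by gene. SUC2, the invertase gene, which is also repressed by glucose, had 3 probe sets that disagreed. The plain one read 0.128 and 0.0617, another 50.5 and 46.2 and one marked as shared 37.4 and 30.1 on replicates 1 and 2, so SUC2 has no single level here. HXK1, a hexokinase gene at rank 3 on the right arm of chromosome 6, read 524 and 466. The dihydroxyacetone kinase gene DAK2 read 151 and 159.8, the glycerol transporter gene STL1 7.93 and 6.85 and the lactate dehydrogenase gene DLD3 87.6 and 90.5. REE1 read 272 and 255. HXK1, DAK2 and REE1 were in the highest 25%, whereas STL1 was in the lowest. The list of other carbon sources, drawn up by symbol, took in 3 genes that are not of carbon use: the aquaporin genes AQY1 at 9.52 and 11.5 and AQY3 at 57.7 and 57.3, and GEX2. The median of its 4 end genes, 7.42 ± 0.401 (SD, n = 2), is for that reason not one of carbon genes. FDH1, for formate dehydrogenase, had 3 probe sets that ranged over 47.1-fold and a mean signal of 11.5 and 9.49.

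Genes for uptake and use of amino acids and sulfur compounds had 8 end genes with a median of 31.3 ± 2.63 (SD, n = 2), 3 in the lowest 25% and 1 in the highest. The neighbours SAM3, a permease gene for S-adenosylmethionine, and SAM4, a homocysteine methyltransferase gene, at the left end of chromosome 16, read 91.4 and 84.3 and 255 and 244. The paralogous neighbours on the left arm of chromosome 12, the permease gene MMP1 and the methyltransferase gene MHT1, read 33.2 and 26.5 and 12.5 and 11.1. SAM4 was in the highest 25% and MHT1 in the lowest, and SAM3 and MMP1 in neither, although SAM3 was in the highest by its brightest probe set. The sulfonate dioxygenase gene JLP1 read 36.0 and 33.9, the vacuolar permease gene VBA2 33.0 and 32.7 and the amino acid permease gene AGP3 8.25 and 6.97. The sulfatase gene BDS1, outermost on the left arm of chromosome 15, read 7.06 and 5.68. The 5 SAM3 probe sets ranged over 12.7-fold. The 12 genes of this list elsewhere had a median of 50.6 ± 0.533, and they include SAM35, SAM37 and SAM50 of mitochondrial protein import, taken in by name.

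Other end genes of nitrogen use were placed in the same way. The catabolic serine and threonine deaminase gene CHA1 read 9.97 and 11.7, the allantoate permease gene DAL5 14.3 and 14.1 and the guanine deaminase gene GUD1 13.5 and 12.7. These 3 lay in the lowest 25%, but the 3 DAL5 probe sets ranged over 11.0-fold and the brightest, a plain one, read 40.8 and 42.3. GDH3, for the less abundant glutamate dehydrogenase, read 52.2 and 59.2, the oligopeptide transporter genes OPT1 and OPT2 68.3 and 71.2 and 36.6 and 28.7, and NIT1, of the nitrilase family, 24.8 and 26.2. IRC7, of cysteine breakdown, read 37.1 and 32.8, and SRY1, for 3-hydroxyaspartate dehydratase, 34.5 and 32.7. URA1, the dihydroorotate dehydrogenase gene of pyrimidine synthesis, read 261 and 235, in the highest 25%.

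The arsenic resistance cluster at the right end of chromosome 16 was low throughout. The exporter gene ARR3 read 0.767 and 1.05, the arsenate reductase gene ARR2 3.20 and 1.79 and the activator gene ARR1 18.3 and 17.3 on replicates 1 and 2. ARR3 and ARR2 were within the control range on both arrays and ARR1 was in the lowest 25%. Among genes for metals and vitamins, SIT1, a siderophore transporter gene, read 159 and 179, the low-affinity iron transporter gene FET4 32.2 and 30.5 and PCA1, a cadmium-transporting ATPase gene, 56.6 and 56.3. BIO2, the biotin synthase gene, read 103 and 108. SIT1 and BIO2 were in the highest 25%, and FET4 and PCA1 in neither end of the range. SIT1 belongs to the same transporter family as genes left out by name and stayed because of its own symbol.

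Some end genes for defence against oxidants and toxic compounds were bright. HSP31, for a stress-induced chaperone and glyoxalase, read 485 and 469.7. HYR1, a peroxidase gene, read 324 and 292, and its neighbour on the right arm of chromosome 9, the glutathione transferase gene GTT1, 240.4 and 235. All 3 were in the highest 25%. The glutathione transferase gene GTT2 read 46.7 and 44.6, and the neighbours FDC1 and PAD1, for decarboxylation of phenylacrylic acids, 54.7 and 52.3 and 76.6 and 73.6. The drug exporter gene SGE1 read 70.8 and 73.6. PDR18, a transporter gene, had 7 probe sets that ranged over 80.6-fold, the brightest at 18.7 and 16.5, and their geometric mean was 4.37 and 4.01. Cell wall genes apart from the mannoproteins were also spread out. HPF1, for a mannoprotein that reduces protein haze in wine, read 1078 and 1079, the strongest signal of any end gene, at rank 7 on the left arm of chromosome 15. The daughter cell separation genes EGT2 and DSE4 read 182 and 182 and 148 and 146. The yapsin gene YPS6 read 33.2 and 33.6, and PGU1, for a pectin-degrading enzyme, 29.0 and 24.7.

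Genes of general cell functions reached into the end regions on several arms. Of the 12 end genes with the strongest signal, all had a plain probe set, and 8 were of ranks 5 to 8. They were HPF1, ERG13, HXK1, HSP31, HYR1, TUB3, REE1, SAM4 and URA1, given above, with ZUO1, ATP15 and YMR315W. ZUO1, for a ribosome-associated chaperone, read 497 and 509.5, and ATP15, for the epsilon subunit of ATP synthase, 425 and 391. On the right arm of chromosome 6, the proteasome genes RPN12 and PRE4 read 126 and 122 and 249 and 245, and RET2, of the coatomer, 202 and 187. ERV29, of vesicle transport, read 143 and 149. Over all end genes, 24 of the 37 in the highest 25% were of ranks 5 to 8 and 13 of ranks 1 to 4.

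Regulators and genes of chromosome biology were also found there. RPD3, for a histone deacetylase and at rank 2 on the left arm of chromosome 14, read 55.0 and 57.9. RIF2, whose protein binds telomeric Rap1, read 2.62 and 3.21, within the control range. The checkpoint gene MRC1 read 10.7 and 11.5, the protein kinase C gene PKC1 27.4 and 27.2, and the activator genes RTG3 and BAS1 44.4 and 40.5 and 28.5 and 26.2. KRR1, of ribosome biogenesis, read 32.7 and 27.9, KAR9, of spindle positioning, 8.95 and 9.19 and the phospholipase C gene PLC1 30.0 and 33.2. Of genes of sporulation, the prospore membrane gene ADY3 read 29.8 and 31.97 and RMD6 3.72 and 3.02. RMD6 lay in the lowest 25% and ADY3 above it. The 124 named end genes outside every list had a median of 32.8 ± 0.194 (SD, n = 2), with 42 in the lowest 25% and 28 in the highest.

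**Figure D4:**
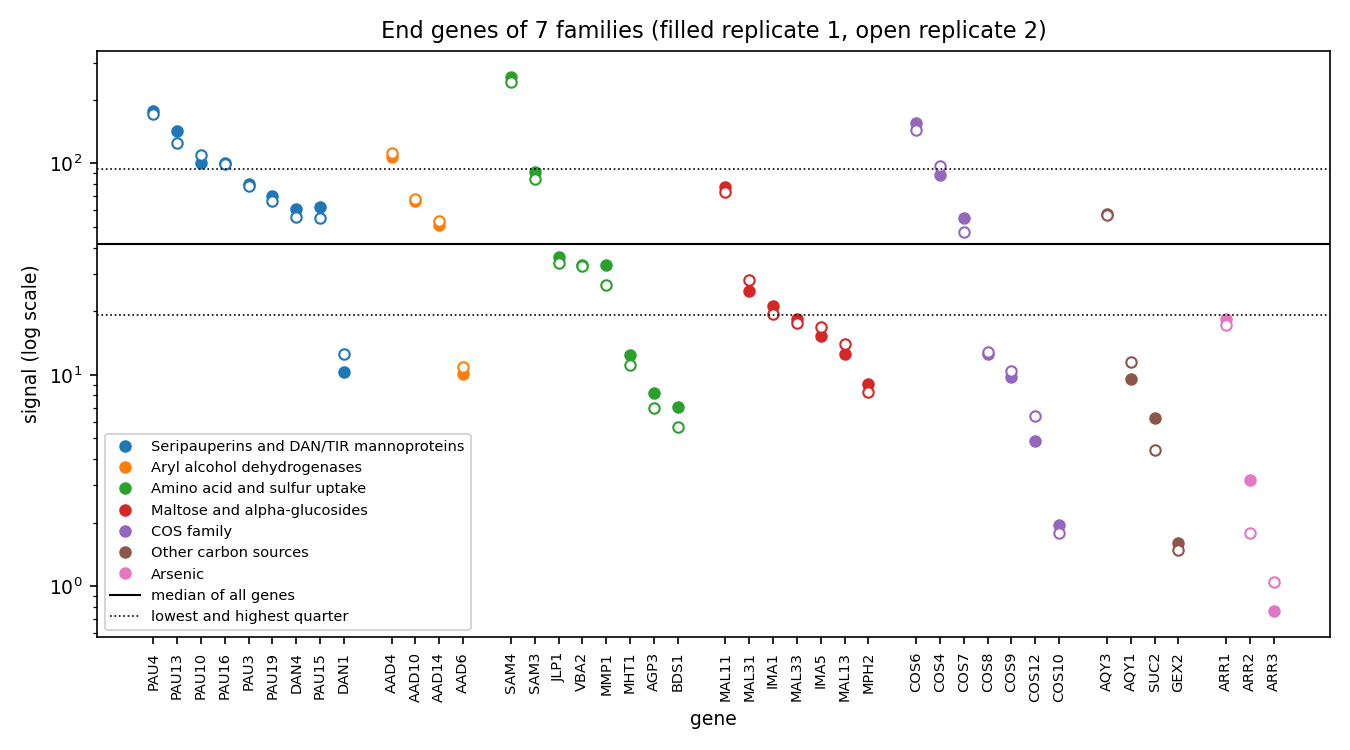
Signal of the end genes of 7 gene lists (vertical axis, log scale), 1 column per gene, filled circles for replicate 1 and open circles for replicate 2, with the median of all genes as a solid line and the limits of the lowest and highest 25% as dotted lines. The seripauperin list lies above the solid line apart from DAN1, the 3 arsenic genes lie below the lower dotted line, and the COS list spans from COS10 to COS6.

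Uncharacterised genes made up 50 of the 218 end genes (22.9%), counting those whose symbol is a plain locus name. They had a median of 11.4 ± 1.74 (SD, n = 2), with 32 in the lowest 25%, 1 in the highest and 8 within the control range. The 318 such genes elsewhere had a median of 26.3 ± 0.568, with 130 in the lowest 25% and 26 within the control range. Named end genes, 168 in number, had a median of 32.7 ± 0.279, against 44.1 ± 0.780 for the 5120 named genes elsewhere. End genes thus lay lower in both classes. Among named end genes the 76 of ranks 1 to 4 had a median of 25.8 ± 0.367 and the 92 of ranks 5 to 8 had 36.1 ± 1.25. Among uncharacterised ones the 34 of ranks 1 to 4 had 11.8 ± 1.37. The 16 of ranks 5 to 8 had 10.6 ± 1.48. By array, ranks 1 to 4 had 12.8 and 10.8 and ranks 5 to 8 had 11.7 and 9.59. Both medians of uncharacterised genes were thus lower on replicate 2, and a difference between them was not tested. The member in the highest 25% was YMR315W, at 292 and 225. The other 4 above the median of all genes were YIL165C at 55.7 and 61.3, YOR385W at 61.9 and 66.3, YJL218W at 53.2 and 57.9 and YLL056C at 44.4 and 40.8. The first by name were YAL064W at 3.59 and 3.23, YAL065C at 13.4 and 11.6, YAR064W at 4.15 and 5.86, YAR068W at 39.0 and 40.8 and YCL074W at 1.60 and 2.22.

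The dimmest end genes read near or below the control level on both arrays. YFR057W read 0.32 and 0.185 on replicates 1 and 2, YIL163C 0.575 and 0.987, YCR101C 2.49 and 0.802 and TDA8 2.11 and 1.42. The other 4 of the 8 dimmest were ARR3, YCL075W, GEX2 and COS10, given above. The remaining members within the control range were ARR2, YCL074W, YIR043C, YGL262W, YGL260W and RIF2, also given above, RDS1, a zinc cluster protein gene, at 2.37 and 2.47, and BSC5 at 3.07 and 2.35. Of these 16, 8 are uncharacterised and 11 are of ranks 1 to 4. YCL075W, YCL074W, GEX2, YGL260W and YIR043C had no plain probe set. By gene value, only an upper limit at the control signal applies to these 16, with the exception of COS10 and YIR043C by their brightest probe sets.

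Signals of neighbouring end genes were weakly related. Over 167 pairs of end genes of adjacent rank, log2 signals had a Spearman correlation of 0.33 and Pearson's r of 0.36, against 0.063 and 0.057 over the 4984 adjacent pairs beyond rank 8. A gene can enter 2 pairs, pairs of an arm share their distance from the end, and all pairs share the arrays, so these correlations are descriptions. Direction of reading was compared next. The 109 end genes read away from the chromosome end had a median of 24.96 ± 0.134 and the 109 read toward it had 27.4 ± 1.70 (SD, n = 2), with 47 of each in the lowest 25%. Elsewhere on the arms, 2647 genes read away from the end had a median of 43.9 ± 0.470 and 2613 read toward it had 44.1 ± 0.876.

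The 2 cultures gave nearly the same picture of the end genes. Between the arrays, log2 signals of the 218 genes correlated with Pearson's r of 0.992 and Spearman's rho of 0.993, and genes are not independent replicates. By each array's own limit, 89 end genes were in the lowest 25% on both arrays and 6 on 1 of them. The matching counts over all genes are not given here, so these describe the end genes alone. Among the 124 end genes above the lowest 25%, the median log2 ratio (replicate 2 over replicate 1) was -0.029 with an SD of 0.16, against -0.023 and 0.20 for all 4242 such genes. Of these end genes 90.3% differed by less than 1.2-fold, against 89.6% of all. At a size of 1.5-fold, 0 end genes were higher on replicate 2, against 0.306% of all genes, and 1 was lower, against 1.20% of all genes. At 2-fold there were 0 either way, against 0.519% of all genes. With dim genes included, 8 of the 218 end genes were past 1.5-fold either way, against 3.41% of all genes. Such a difference rests on a single array per culture, so it has no replicate check and no p-value.

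The gene past that size was PRE5, a proteasome subunit gene at rank 8 on the right arm of chromosome 13, at 249 and 156 on replicates 1 and 2, a log2 ratio of -0.67. The next lowest ratios were those of YML131W at -0.42, YIL171W at -0.39, YMR315W at -0.37, OPT2 at -0.35 and MNT2 at -0.34. The probe sets of PRE5 and YMR315W carry the numbers 9322 and 9323. A run of probe set numbers around genes 2-fold lower on replicate 2 goes from 9334 to 9701. Such a run joins at least 3 probe sets of such genes across gaps of up to 100 numbers. Probe sets without low values can therefore lie inside it. DIA1, at number 9324 and nearer to the run, had a log2 ratio of 0.067, PAU19 at 9290 had -0.077 and FET4 at 9284 had -0.074. The part of that run in these ratios was not tested. The highest ratios were those of LEM3 at 0.36, MIX23 at 0.35, YER186C at 0.31, ACM1 at 0.27, PEX6 at 0.24 and ISC10 at 0.23. Within the lowest 25% the ratios of end genes had an SD of 0.36, against 0.45 for all such genes.

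**Figure D5:**
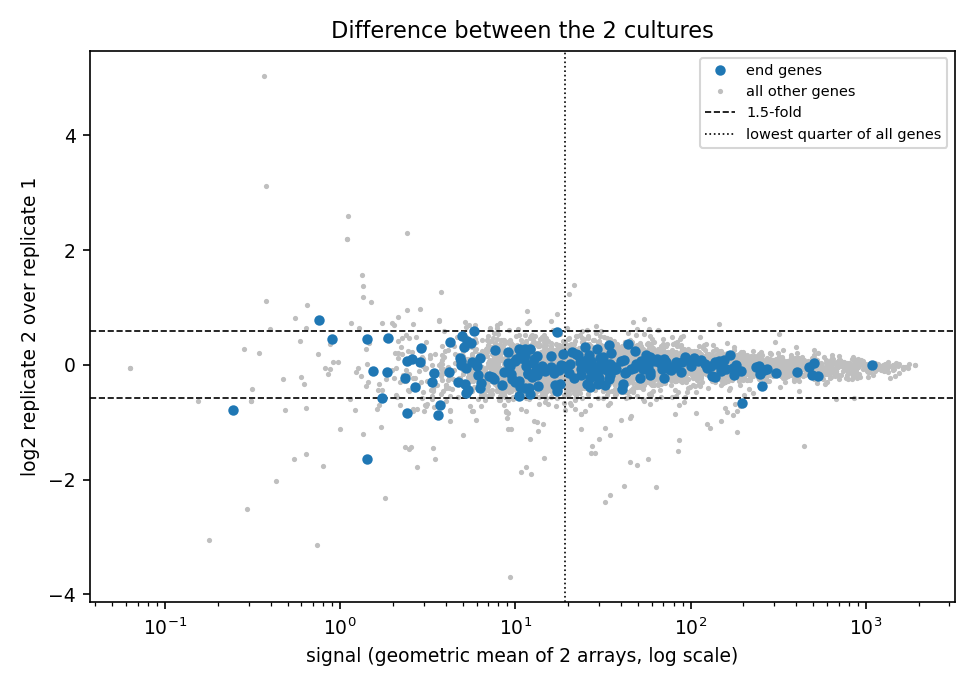
Log2 ratio of replicate 2 to replicate 1 (vertical axis) against signal (horizontal axis, log scale, geometric mean of 2 arrays) for the end genes in blue and all other genes in grey, with dashed lines at 1.5-fold and a dotted line at the upper limit of the lowest 25% of all genes. Right of the dotted line the end genes stay inside the dashed lines apart from PRE5.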

How the data were processed

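Each of the 2 replicate cultures was hybridised to 1 array. The authors deposited 1 linear intensity for every probe set, and MAS5 is the tool that the submitters' processing notes name. The version, the settings and the target of the scaling factor are not given in the sources. The design text speaks of replicate cultures, and the spread between the arrays is all the error that 2 arrays show. Their number limits the precision.

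Of 9335 probe sets, 6504 list 1 gene in the platform annotation and were named through RefSeq's R64 table by gene identifier, all matched. A further 328 list several genes, 60 are controls and 2443 are unnamed here. A gene's value is the mean of the log2 signals of its probe sets, leaving out a probe set with 0 on either array. Ties in locus number took the plain name first. With a single group, no test between groups was made. Lists are described by counts and medians beside those of all 5656 genes. Errors of medians are SD over the 2 arrays. A difference between the arrays was counted from 1.5-fold among genes above the 25th percentile of signal, with no p-value.

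The members, the lists, the named genes and the tests were chosen with earlier results of these data known. The rule named the first 5 members of each list, the 12 brightest and 8 dimmest, the 6 highest and 6 lowest ratios, the rank 1 genes, and the genes of the brightest and dimmest arm. Other genes were named for their known roles after their values were seen, and not all named by the rule are printed. The lists for Y' helicases, Vps10 homologs and thiamine and vitamin B6 had no end gene. Those for biotin and formate dehydrogenase had 1 each. The steps were tested on simulated data. Alternatives covered the probe sets used, the scaling, a pseudocount, the order of the rule, the number of genes per arm, the limits and leaving out a replicate. Software was Python 3.11.15 with matplotlib 3.10.9, pandas 2.3.3, numpy 2.4.6 and scipy 1.17.1.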

Additional observations from a re-analysis of the deposited data

How the results depend on the processing

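The end genes' median stayed below that of all genes in every setting tried. Most end genes have 1 probe set, and settings that leave out an array keep the other, so these settings could move few values of single genes. Leaving out a replicate gave 91 and 93 end genes in the lowest 25%, 38 and 37 in the highest, and 21 and 16 within the control range of the remaining array. A limit on 1 array is looser than one on both, and the share of all genes within it is not given here. The end genes' median relative to all genes, -0.66 on the log2 scale, was -0.68 with the brightest probe set of each gene, -0.54 over 256 genes when names were left out before taking 8 per arm, -1.21 with 4 genes per arm and -0.46 with 12. Without a replicate it was -0.67 and -0.66. In settings added after seeing the data it was -0.75 without the seripauperin list and -0.36 without uncharacterised genes. In the lowest 25% were 58 of 110 end genes with 4 per arm, and 62 of 168 without uncharacterised genes. In the highest 25% were 13 with 4 per arm and 72 of 340 with 12. The lowest 10% of all genes by signal held 49 end genes and the highest 10% held 13. Against the highest mouse control, 1 end gene was within range on both arrays, against 0.318% of all genes. The count past 1.5-fold was 8 of 218 with no filter on signal, where 3.41% of all genes lie either way. At 2-fold it was 0, where 0.519% of all genes lie either way. The count at 1.5-fold was 0 of 120 when runs of probe set numbers widened by 50 were left out. This setting was added after seeing the data, and its margin takes out PRE5 itself, so its 0 was fixed in advance. Arms with a median below that of all genes numbered 22 to 24, and ranks 8 of 8, in every setting tried. No paired analysis was possible because the series holds 1 group. Signals near the control level limit what can be read for the dimmest genes.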
